A study of Mus musculus with 20 samples.

Results

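The 7 genes described here make, load, recycle and sense dopamine or specify the neurons that do so: Th, Slc6a3, Slc18a2, Nr4a2, Pitx3, Drd1 and Drd2. Their members were the CpGs that the deposited percentages list inside the mm10 gene and 1 kb either side. This gave 556 CpGs of 1151198 on chromosomes 1 to 19, X and Y at 13 months and 581 of 1234455 at 3 months. Each listed position is counted as 1 CpG throughout. Among the members, 94 adjacent pairs at 13 months and 102 at 3 months are mostly the 2 strands of 1 CpG, so distinct CpGs are fewer. The DNA came from mouse brain homogenates after a selection for microglia, which are macrophages that live in the brain, and was read by reduced representation bisulfite sequencing, an assay of CpG-rich DNA. HEM mice carried, on the X chromosome, a transgene of human wild-type α-synuclein driven by the murine Thy-1 promoter, a promoter best known for neuronal expression, and WT mice did not carry it. All came from the B6D2F1/J background, a cross of 2 inbred strains, although the label of 1 HEM library at 13 months leaves the background out. At 13 months of age 8 libraries were HEM and 4 were WT, at 3 months of age 4 were HEM and 4 were WT, and the series' design text counts 3 WT mice at 3 months where 4 libraries carry that label. No label says that a group's libraries share or pool animals, so p-values measure the spread between these libraries. In a mixture of cells, a change in cell makeup and a change of methylation within a cell type cannot be told apart.

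Dopamine is made from tyrosine by tyrosine hydroxylase, the product of Th, and is packed into vesicles by the transporter VMAT2, the product of Slc18a2. The dopamine transporter, encoded by Slc6a3, takes it back up at the terminal. Nr4a2 (Nurr1) and Pitx3 are transcription factors that specify and maintain midbrain dopamine neurons, and in microglia and astrocytes Nr4a2 is also known as a repressor of inflammatory genes. Drd1 and Drd2 encode the main receptors of the striatum, and Drd2 is also the autoreceptor of dopamine neurons. Methylation of CpGs at a gene's start is in general a mark of silencing, while start sites rich in CpGs are mostly unmethylated whether the gene is active or not. Most cells in a microglia-enriched homogenate are not dopamine neurons, so the values describe these genes mainly in other cells of the brain.

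The 300 bases around the annotated start of 4 of the genes, most of them before it, are shown because they carry the contrast between starts full of measured CpGs and starts with few or none. Sequences are from RefSeq on GRCm38.p6, the assembly of mm10, on the gene's own strand, 5′ to 3′, and capitals mark each CG of which at least 1 strand was listed at either age. Nr4a2 lies at chr2:57123954-57124253 on the minus strand, Slc6a3 at chr13:73536497-73536796 on the plus strand, Drd2 at chr9:49340153-49340452 on the plus strand and Th at chr7:142899946-142900245 on the minus strand.
Nr4a2: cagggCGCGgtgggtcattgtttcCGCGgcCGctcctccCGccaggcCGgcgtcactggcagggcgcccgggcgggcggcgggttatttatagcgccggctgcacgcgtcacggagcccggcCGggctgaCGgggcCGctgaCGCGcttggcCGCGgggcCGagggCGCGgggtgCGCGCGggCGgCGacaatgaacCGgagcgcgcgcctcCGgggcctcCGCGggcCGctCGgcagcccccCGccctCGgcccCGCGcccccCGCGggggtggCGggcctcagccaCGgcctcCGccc
Slc6a3: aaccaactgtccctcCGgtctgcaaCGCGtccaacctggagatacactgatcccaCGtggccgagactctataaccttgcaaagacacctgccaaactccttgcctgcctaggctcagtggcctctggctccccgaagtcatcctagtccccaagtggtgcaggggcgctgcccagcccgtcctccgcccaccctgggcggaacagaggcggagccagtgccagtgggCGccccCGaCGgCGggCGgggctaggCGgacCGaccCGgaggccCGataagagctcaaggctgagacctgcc
Drd2: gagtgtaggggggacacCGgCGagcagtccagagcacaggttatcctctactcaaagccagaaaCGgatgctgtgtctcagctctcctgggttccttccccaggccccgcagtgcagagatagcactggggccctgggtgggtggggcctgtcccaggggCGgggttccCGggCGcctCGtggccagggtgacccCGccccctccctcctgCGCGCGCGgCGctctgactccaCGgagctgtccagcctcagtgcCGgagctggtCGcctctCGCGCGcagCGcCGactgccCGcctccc
Th: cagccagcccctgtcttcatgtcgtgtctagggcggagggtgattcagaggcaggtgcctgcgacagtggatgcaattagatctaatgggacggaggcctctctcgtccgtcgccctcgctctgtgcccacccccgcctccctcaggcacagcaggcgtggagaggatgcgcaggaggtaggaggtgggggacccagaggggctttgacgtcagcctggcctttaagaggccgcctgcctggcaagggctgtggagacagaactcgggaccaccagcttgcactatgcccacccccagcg

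The Nr4a2 window held 52 CGs and 37 of them were measured, against 13 of 20 in the Slc6a3 window, 22 of 23 in the Drd2 window and 0 of 15 in the Th window. The Pitx3 window had 9 of 20 CGs measured, the Slc18a2 window 2 of 12, and neither of the Drd1 windows, at its 2 annotated starts, had any. Every measured window was nearly unmethylated in every group. The listed CpGs of the Nr4a2 window averaged 0.0728% ± 0.0551 in HEM (SD, n = 8) and 0.191% ± 0.209 in WT (SD, n = 4) at 13 months, and 0.195% ± 0.206 in HEM and 0.0675% ± 0.0114 in WT at 3 months (SD, n = 4 each). The Drd2 window was the highest of the measured windows, at 2.62% ± 0.728 in HEM (SD, n = 8) and 2.06% ± 0.615 in WT (SD, n = 4) at 13 months, and 1.92% ± 0.383 in HEM and 2.10% ± 0.937 in WT at 3 months (SD, n = 4 each). A level this low was the usual one: of 10681 RefSeq windows with at least 3 listed CpGs at 13 months 91.4% were below 5%, and of 10928 at 3 months 91.3% were.

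A few short motifs were looked for in the windows on both strands, after the sequences had been seen. The cyclic AMP response element TGACGTCA, which binds CREB, stood in the Th window with its first base 45 bases before the start, where it is part of the known Th promoter, and in the Slc18a2 window 4 bases before the start. It occurred in 1.79% of the 32851 windows. The NR4A monomer element AAAGGTCA was in none of the windows of the 7 genes and in 1.51% of all windows. CCGG, the site cut by MspI, the usual enzyme of the assay, was absent from the Th window and from 1 of the Drd1 windows, and 52.8% of all windows had it.

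Beyond the starts the genes differed widely. Of the 556 CpGs at 13 months 390 averaged below 5%, 164 between 5% and 95%, and 2 above 95%, and at 3 months these counts were 400, 180 and 1 of 581. CpGs within 1 kb of an annotated start averaged 2.76% at 13 months (242 CpGs) and those farther away 19.4% (314 CpGs), and at 3 months the values were 2.45% (240 CpGs) and 21.5% (341 CpGs). The share below 5% was 70.1% for the 7 genes and 55.7% for all CpGs listed at 13 months, and 68.9% and 55.2% at 3 months, which is a description of which parts of these genes the assay covers and was not tested.

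**Figure D1:**
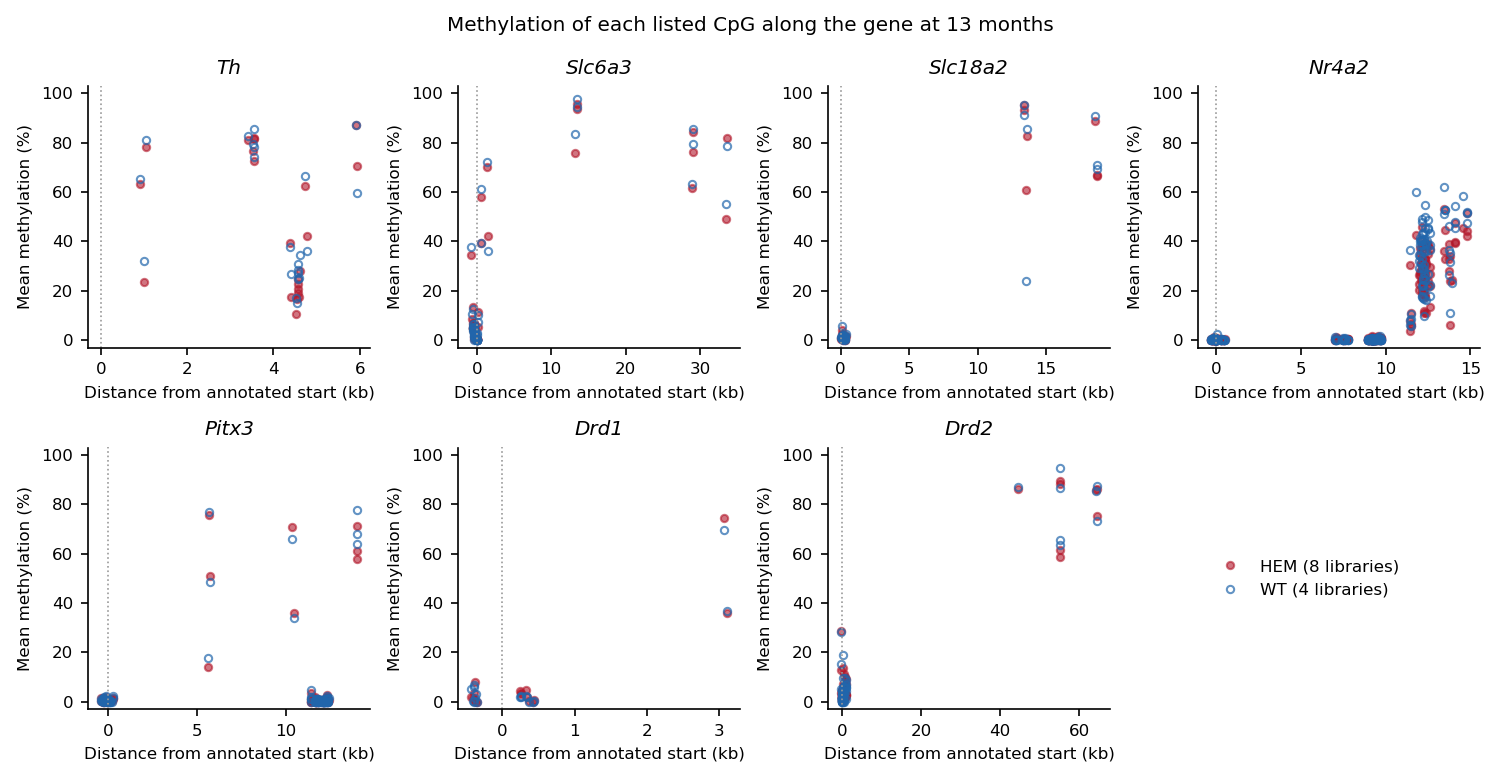
Mean methylation in percent of each listed CpG at 13 months against its distance in kb from the annotated start, with 1 panel per gene. Filled red points are means of 8 HEM libraries and open blue points means of 4 WT libraries. Most CpGs near the starts sit near 0 in 6 of the genes, Th has no listed CpG at its start, and Nr4a2 has a band of intermediate values from about 11 to 15 kb into the gene.

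The measured CpGs of Th, the gene of the rate-limiting enzyme of dopamine synthesis, all lay inside the gene (chr7:142892779-142899995, minus strand), 22 at 13 months and 24 at 3 months, and none averaged below 5% or above 95%. The Th region averaged 47.2% ± 6.39 in HEM (SD, n = 8) and 49.8% ± 3.87 in WT (SD, n = 4) at 13 months. At 3 months it averaged 48.4% ± 2.68 in HEM and 52.4% ± 3.54 in WT (SD, n = 4 each). This was the most methylated of the 7 regions at both ages, with 65.1% of the 25830 gene regions of the series below it at 13 months. The CpG of highest mean at 13 months, at position 142894087, was at 87.3% over the libraries, and the CpG of lowest mean, at position 142895466, was at 12.6%.

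Slc6a3 (chr13:73536128-73578672, plus strand) combined an almost bare start with a methylated gene body. Its 41 CpGs within 1 kb of the start averaged 6.28% at 13 months and 5.46% at 3 months, while the 10 farther away averaged 73.6% and 75.9%. A run of 12 CpGs from position 73536726 to 73536811, across the start, was at 0.327% ± 0.134 in HEM (SD, n = 8) and 0.525% ± 0.601 in WT (SD, n = 4) at 13 months, and at 0.265% ± 0.145 in HEM and 0.319% ± 0.231 in WT at 3 months (SD, n = 4 each). A single CpG in the gene body at position 73550202 was at 96.4% over the libraries at 13 months and 94.5% at 3 months. The whole region was at 19.4% ± 1.40 in HEM (SD, n = 8) and 19.7% ± 0.625 in WT (SD, n = 4) at 13 months, and at 19.2% ± 0.801 in HEM and 19.3% ± 0.998 in WT at 3 months (SD, n = 4 each).

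Slc18a2 (chr19:59260878-59296012, plus strand) had the same form, with 25 CpGs within 1 kb of the start at 1.10% at 13 months and 0.953% at 3 months, and 7 CpGs farther away at 77.9% at 13 months and 10 at 79.4% at 3 months. Because 3 more methylated CpGs were listed at 3 months, the region mean there (23.3% ± 0.707 in HEM and 23.5% ± 1.02 in WT, SD, n = 4 each) cannot be set against that at 13 months (18.1% ± 1.62 in HEM, SD, n = 8, and 17.5% ± 1.59 in WT, SD, n = 4). Over the 32 CpGs listed at both ages it was 17.1% ± 0.845 in HEM and 17.1% ± 1.42 in WT at 3 months (SD, n = 4 each). The flank also overlaps Pdzd8.

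Nr4a2 (chr2:57106830-57124003, minus strand) held the most CpGs, 249 at 13 months and 263 at 3 months, in 2 kinds of sequence. A total of 63 CpGs within 1 kb of the annotated start averaged 0.136% at 13 months, and another dense run of 82 CpGs inside the gene, from position 57114286 to 57115039, was at 0.277% ± 0.101 in HEM (SD, n = 8) and 0.201% ± 0.103 in WT (SD, n = 4) at that age. Of the 249 CpGs 159 averaged below 1%, and 42 were listed at 0 in every library of 13 months. From position 57109190 to 57112563, between 11 and 15 kb into the gene, the listed CpGs were intermediate instead. The longest run there, 60 CpGs from position 57111356 to 57112041, averaged 27.4% ± 6.96 in HEM (SD, n = 8) and 33.5% ± 4.58 in WT (SD, n = 4) at 13 months, and 36.3% ± 4.23 in HEM and 31.7% ± 3.52 in WT at 3 months (SD, n = 4 each). The annotated gene overlaps the locus LOC105244150, and strands were not used to separate the 2.

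Pitx3 (chr19:46135281-46148325, minus strand) was the least methylated region, with 107 of 115 CpGs below 5% at 13 months and 113 of 121 at 3 months. A run of 68 CpGs from position 46135898 to 46136683, about 12 kb into the gene, was at 0.321% ± 0.171 in HEM (SD, n = 8) and 0.364% ± 0.0938 in WT (SD, n = 4) at 13 months. The region averaged 4.18% ± 0.375 in HEM (SD, n = 8) and 4.39% ± 0.0805 in WT (SD, n = 4) at 13 months, and 3.83% ± 0.149 in HEM and 3.88% ± 0.113 in WT at 3 months (SD, n = 4 each). A mean under 5% kept the Pitx3 region out of the region test, so 6 of the 7 genes were tested as whole regions. The flank also overlaps Elovl3.

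The receptor genes resembled the transporters. Drd1 (chr13:54051183-54055658, minus strand) had 16 CpGs within 1 kb of its starts at 2.13% and 2 farther away at 54.5% at 13 months, and 10 at 1.53% and 3 at 59.0% at 3 months. Over the 12 Drd1 CpGs listed at both ages the mean was 11% ± 1.01 in HEM (SD, n = 8) and 10.2% ± 1.21 in WT (SD, n = 4) at 13 months, and 9.14% ± 0.584 in HEM and 9.91% ± 1.37 in WT at 3 months (SD, n = 4 each). Drd2 (chr9:49340360-49408177, plus strand) had 61 CpGs within 1 kb of the start at 3.81% and 8 farther away at 79.4% at 13 months. The Drd2 region was at 12.6% ± 1.11 in HEM (SD, n = 8) and 12.5% ± 0.864 in WT (SD, n = 4) at 13 months, and at 12.2% ± 1.15 in HEM and 12.3% ± 0.901 in WT at 3 months (SD, n = 4 each). Drd2 overlaps the non-coding gene Gm46111.

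Ordered by region mean at 13 months, the genes ran Th, Slc6a3, Slc18a2, Drd2, Nr4a2, Drd1 and Pitx3. Th stood above and Pitx3 below every other gene in every library. The library values of Slc6a3 and Slc18a2 overlapped, as did those of Drd2 and Nr4a2 and those of Nr4a2 and Drd1. A region mean depends on which of a gene's CpGs the assay reached, so this order is of the listed CpGs and not of whole genes.

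**Figure D2:**
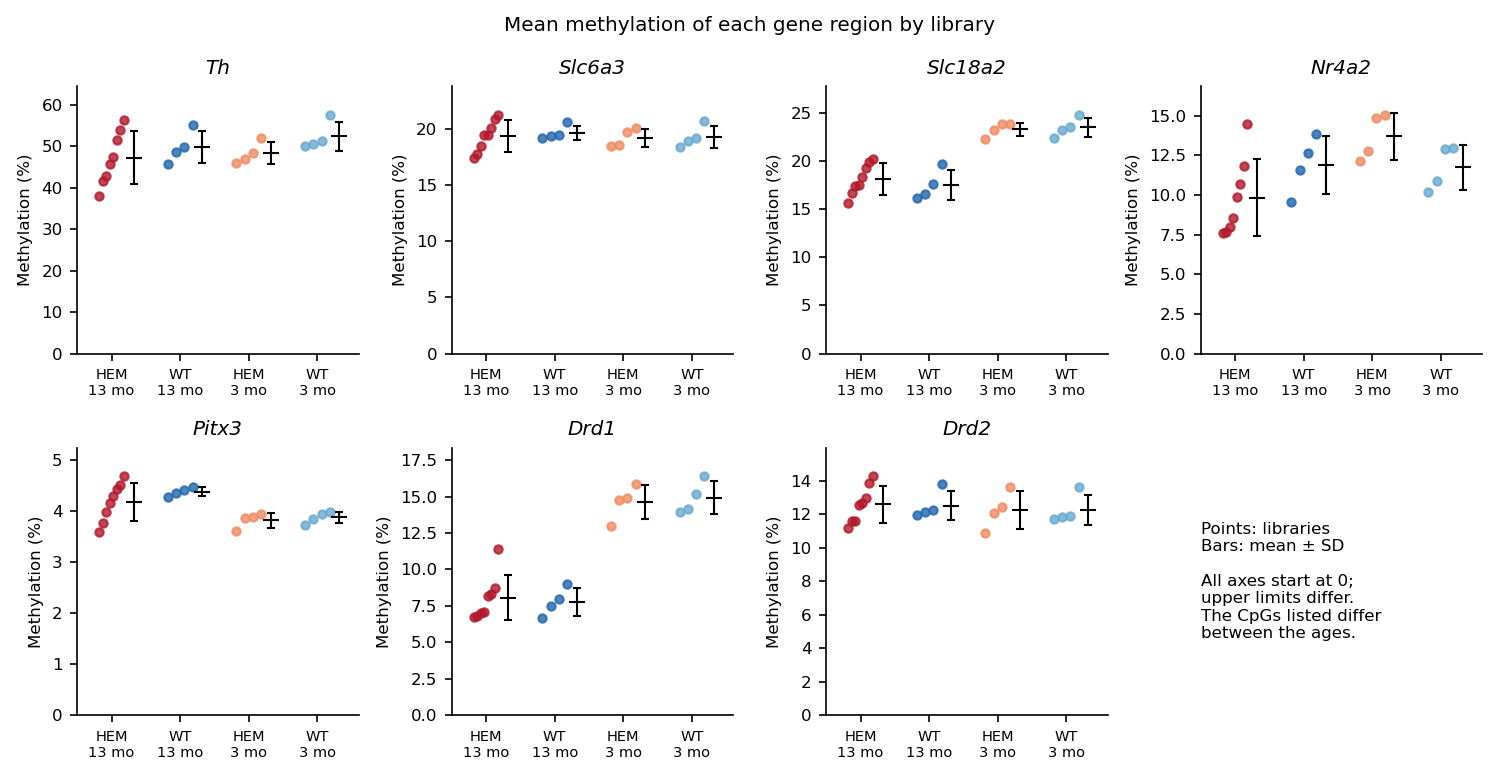
Mean methylation in percent over the listed CpGs of each gene region, with 1 point per library and bars for the mean and SD of each group (8 HEM and 4 WT libraries at 13 months, 4 and 4 at 3 months). The HEM and WT groups overlap in every gene at both ages, and Drd1 and Slc18a2 are higher at 3 months because other CpGs were listed.

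The first comparison asked whether α-synuclein mice differ from controls at 13 months. None of the members passed: 0 of 164 CpGs tested, 0 of 13 runs (at least 3 CpGs with neighbours at most 100 bp apart) and 0 of 6 gene regions were called by limma. A call needed a Benjamini-Hochberg adjusted p under 0.05 over all features of the series and a difference of at least 10 points for a CpG or 5 points for a run or region. Among all features, 4 of 453891 CpGs (0.000881%), 0 of 63404 runs (0%) and 0 of 19451 gene regions (0%) were called, so the members' count is at the background. At an unadjusted p under 0.05 there were 7 of 164 member CpGs (4.27%), against 5.82% of all CpGs tested. Runs at that limit were 0 of 13 (5.64% of all runs tested) and regions 0 of 6 (4.05% of all regions tested). The smallest adjusted p of a member CpG was 0.820.

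At 3 months the result was the same in kind: 0 of 180 CpGs, 0 of 15 runs and 0 of 6 regions of the 7 genes were called by limma, where the whole series had 0 of 492283 CpGs (0%), 0 of 69260 runs (0%) and 0 of 20189 regions (0%). At an unadjusted p under 0.05 there were 11 member CpGs (6.11%, against 4.53% of all CpGs tested). Runs at that limit were 2 of 15, both in Th (4.56% of all runs tested), and regions 0 of 6 (4.03% of all regions tested). The differences of the region means are given with 95% intervals, each for 1 region alone and not adjusted for the number of regions tested. A call needed more than an interval without 0, so these intervals are not the limit of detection. For Slc6a3 the difference, HEM minus WT, was -0.29 points (interval -1.91 to 1.33) at 13 months and -0.06 points (-1.57 to 1.45) at 3 months. For Drd2 it was 0.07 points (-1.35 to 1.48) and -0.02 points (-1.71 to 1.67), for Drd1 0.28 points (-1.56 to 2.13) and -0.29 points (-2.14 to 1.57), and for Slc18a2 0.62 points (-1.48 to 2.73) and -0.20 points (-1.67 to 1.27). Th had the widest intervals, with a difference of -2.62 points (-9.94 to 4.71) at 13 months and -4.04 points (-8.84 to 0.75) at 3 months.

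**Figure D3:**
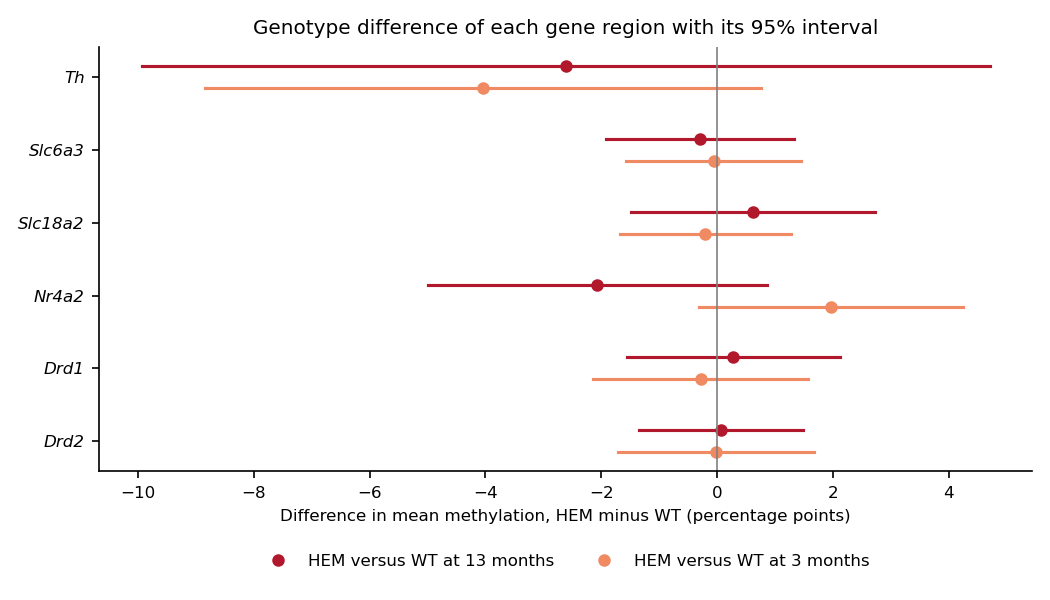
Difference in mean methylation of each tested gene region, HEM minus WT, in percentage points with its 95% interval, at 13 months (dark red) and 3 months (orange). All 12 intervals include 0. The Nr4a2 differences have opposite signs at the 2 ages, and Th has the widest intervals.

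Nr4a2, the transcription factor gene, was the member whose CpGs leaned one way at one age and the other way at the other. At 13 months the region was at 9.84% ± 2.43 in HEM (SD, n = 8) and 11.9% ± 1.84 in WT (SD, n = 4), a difference of -2.07 points (-4.99 to 0.86). At 3 months it averaged 13.7% ± 1.47 in HEM and 11.7% ± 1.41 in WT (SD, n = 4 each), a difference of 1.97 points (-0.31 to 4.24). The limma adjusted p was 1 at each age. Of 84 tested Nr4a2 CpGs at 13 months 68 were lower in HEM, with a median difference of -6.21 points, and of 95 at 3 months 72 were higher in HEM, with a median of 4.30 points. Neighbouring CpGs share reads, and these counts are of few fragments, not of independent sites. They also hold 18 adjacent pairs at 13 months and 22 at 3 months, mostly the 2 strands of 1 CpG.

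In the run of 60 CpGs the 13-month HEM libraries had a lowest value of 21.2%, a median of 25.2% and a highest of 41.0%, and the WT libraries 1, 2, 6 and 7 had 36.4%, 32%, 27.7% and 37.9%. At 3 months the HEM libraries 1, 2, 3 and 7 had 39.9%, 40%, 33.0% and 32.3%, and the WT libraries 1, 3, 4 and 5 had 34.0%, 35.3%, 28.4% and 29.0%. At 13 months 5 of the 8 HEM libraries lay below the lowest WT library, while HEM library 10 lay above the highest, so the groups overlapped at both ages. The difference was -6.13 points (-14.0 to 1.75) at 13 months with a limma adjusted p of 0.897, and 4.61 points (-1.44 to 10.7) at 3 months with an adjusted p of 0.993.

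In the same stretch lies a shorter run of 4 listed positions: 57110492, the adjacent 57110493, 57110547 and 57110568. This run had the lowest adjusted p of any tested member run in the interaction. Its 13-month HEM libraries ran from 24.7% through a median of 39.5% to 61.4%, and the WT libraries 1, 2, 6 and 7 were at 60%, 51.0%, 38.9% and 68.7%. The 3-month HEM libraries 1, 2, 3 and 7 were at 63.6%, 63.6%, 62.6% and 41.7%, and the WT libraries 1, 3, 4 and 5 at 55.2%, 47.1%, 49.6% and 35.7%. At 3 months 3 of the 4 HEM libraries were above every WT library and the fourth was below 3 of them. The difference was -12.9 points (-28.1 to 2.27) at 13 months and 11 points (-2.08 to 24.0) at 3 months. The interaction was -23.8 points (-45.0 to -2.69), with a limma adjusted p of 0.744. The run was picked for that p among 12 runs, so its values are a description and add no support to the pattern.

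The single Nr4a2 CpG of smallest p in the interaction, at position 57111703, was chosen for that p among 84, so its values are a description and add no support to the pattern. Its 13-month HEM libraries had a lowest value of 13.4%, a median of 39.0% and a highest of 52.9%, and the WT libraries 1, 2, 6 and 7 had 70.7%, 52.3%, 38.5% and 57.9%. The 3-month HEM libraries 1, 2, 3 and 7 had 66.7%, 76.8%, 61.8% and 48.8%, and the WT libraries 1, 3, 4 and 5 had 32%, 50%, 36.4% and 30.6%. The groups overlapped at both ages. The interaction at this CpG was -42.9 points (-64.5 to -21.2), with a limma adjusted p of 0.721, and it did not pass. Between 13 and 3 months position 57111703 differed by -25.3 points in HEM and 17.6 points in WT. The adjacent listed position, 57111702, differed less, by -12.4 points in HEM and 10.2 points in WT.

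Over all 7 genes the interaction of age and genotype called 0 of 160 CpGs, 0 of 12 runs and 0 of 6 regions, where the series had 1 of 446428 CpGs (0.000224%), 0 of 62441 runs (0%) and 0 of 19312 regions (0%). At an unadjusted p under 0.05 there were 16 member CpGs (10%, against 6.28% of all CpGs tested), of which 13 lay in Nr4a2. Runs at that limit were 1 of 12 (6.63% of all runs tested) and regions 0 of 6 (5.18% of all regions tested). For the Nr4a2 region the interaction was -3.70 points (-7.53 to 0.12), with a limma adjusted p of 0.903.

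**Figure D4:**
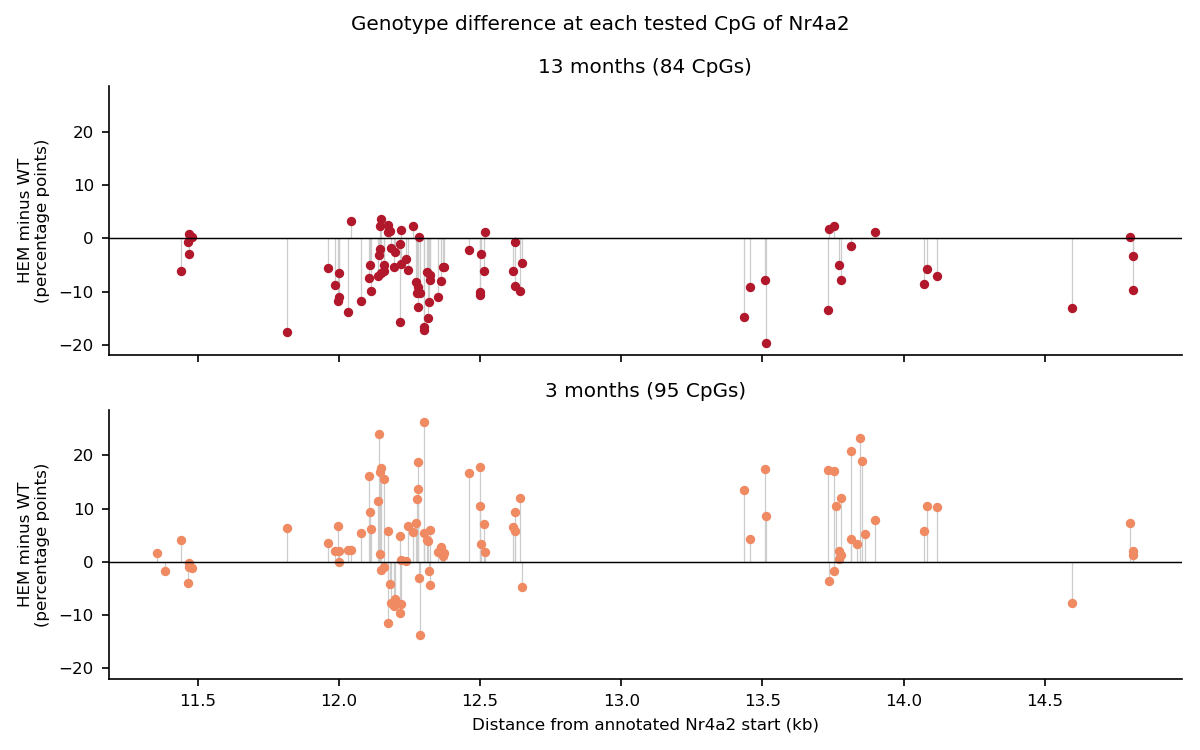
Difference in mean methylation, HEM minus WT in percentage points, at each tested CpG of Nr4a2 against its distance in kb from the annotated start, at 13 months (upper panel, 84 CpGs) and 3 months (lower panel, 95 CpGs). Most points lie below 0 at 13 months (68 of 84) and above 0 at 3 months (72 of 95), and no CpG passed the test at either age.

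The Nr4a2 level tended to follow that of the microglia marker gene regions, of which 9 of 14 had at least 3 listed CpGs. This likeness was read from the library values and was not tested. At 13 months the HEM libraries 6, 8 and 11 had the lowest Nr4a2 region means (7.63%, 7.66% and 7.97%) and microglia list means of 43.3%, 44.5% and 42.1%, while the HEM libraries 3 and 10 had the highest Nr4a2 means (11.9% and 14.5%) and list means of 53.0% each. The microglia list averaged 47.4% ± 4.15 in HEM (SD, n = 8) and 49.6% ± 3.87 in WT (SD, n = 4) at 13 months, and 50.7% ± 3.28 in HEM and 50.6% ± 1.88 in WT at 3 months (SD, n = 4 each). Its libraries ranged from 42.1% to 53.0% in HEM and from 44.5% to 53.9% in WT at 13 months, and from 47.8% to 54.5% in HEM and from 48.2% to 52.3% in WT at 3 months. The list of other macrophage and leukocyte genes averaged 55.2% ± 2.96 in HEM (SD, n = 8) and 57.4% ± 2.98 in WT (SD, n = 4) at 13 months, and 59.4% ± 2.88 in HEM and 56.8% ± 1.59 in WT at 3 months (SD, n = 4 each). The likeness was not particular to the microglia list. At 13 months this second list was at 52.8%, 52.0% and 52.1% in HEM libraries 6, 8 and 11, and at 57.2% and 59.8% in HEM libraries 3 and 10. HEM library 1 went the other way, with 57.5% on this list and an Nr4a2 mean of 8.58%. Its microglia list mean, 48.8%, was also above the HEM mean of 47.4%. With the microglia list mean as a covariate, the Nr4a2 coefficient on the log2 scale of the fit was -0.15 ± 0.10 (SE) at 13 months, where it had been -0.30 ± 0.18, and 0.24 ± 0.07 at 3 months, where it had been 0.24 ± 0.12. Adjusted p-values from limma with the covariate were 1 and 0.763.

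Th showed its largest genotype differences in the gene body, 3.5 to 4.6 kb from the start, where HEM was lower at both ages. In a run of 8 CpGs from position 142895378 to 142895466 the 13-month HEM libraries had a lowest value of 9.19%, a median of 17.7% and a highest of 38.0%, and the WT libraries 1, 2, 6 and 7 had 29.6%, 32.7%, 18.6% and 20.6%. Among the 3-month libraries HEM 1, 2, 3 and 7 had 15.3%, 11.8%, 19.7% and 13.3%, and the WT libraries 1, 3, 4 and 5 had 23.3%, 30.2%, 20.8% and 17.9%. The groups overlapped at both ages, at 3 months only through HEM library 3 and WT library 5. The difference was -5.33 points (-17.2 to 6.53) at 13 months with a limma adjusted p of 0.915, and -8.00 points (-14.6 to -1.35) at 3 months with an adjusted p of 0.993.

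Another Th run of 4 CpGs, from position 142896447 to 142896461, was highly methylated at about 80%. At 3 months the HEM libraries 1, 2, 3 and 7 had 79.8%, 68.9%, 75.7% and 73.4%, and the WT libraries 1, 3, 4 and 5 had 76.0%, 87.2%, 80.4% and 83.8%, a difference of -7.43 points (-14.4 to -0.47) with a limma adjusted p of 0.993. At 13 months this run was at 78.2% ± 6.96 in HEM (SD, n = 8) and 79.5% ± 9.57 in WT (SD, n = 4). The Th CpG of smallest p at 3 months, at position 142895426, had 10.2%, 5.77%, 18.4% and 7.89% in the HEM libraries 1, 2, 3 and 7, and 24.3%, 38.2%, 19.6% and 18.4% in the WT libraries 1, 3, 4 and 5. The adjusted p was 0.985.

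Slc18a2, the vesicular transporter gene, held the most variable CpG of the 7 genes at 13 months, with an SD of 32.8 points over the 12 libraries. This CpG, at position 59274439 and 13.6 kb into the gene, had 84.3%, 76.0%, 75%, 40.5%, 3.70%, 49.3%, 89.6% and 68.4% in the HEM libraries 1, 3, 6, 7, 8, 10, 11 and 13, and 58.7%, 0%, 0% and 37.5% in the WT libraries 1, 2, 6 and 7. At 3 months it had 41.1%, 55.2%, 22.2% and 75% in the HEM libraries 1, 2, 3 and 7, and 33.2%, 26.6%, 71.2% and 48.6% in the WT libraries 1, 3, 4 and 5. Both WT libraries at 0 and HEM library 8 stood apart from the rest, and the groups overlapped. The mice come from a cross of 2 strains, and whether a sequence variant lies at this CpG or in the intermediate Nr4a2 stretch was not tested.

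The next listed Slc18a2 CpG, 7 bases away at position 59274446, varied less in HEM, at 82.7% ± 8.80 (SD, n = 8) at 13 months. In WT it was at 85.6% ± 18.8 (SD, n = 4) at that age, which is still a wide spread. For the variable CpG the genotype difference was 36.8 points (4.04 to 69.6) at 13 months with a limma adjusted p of 0.820, the lowest adjusted p of any member CpG in that comparison. At 3 months it averaged 48.4% ± 22.3 in HEM and 44.9% ± 19.8 in WT (SD, n = 4 each).

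**Figure D5:**
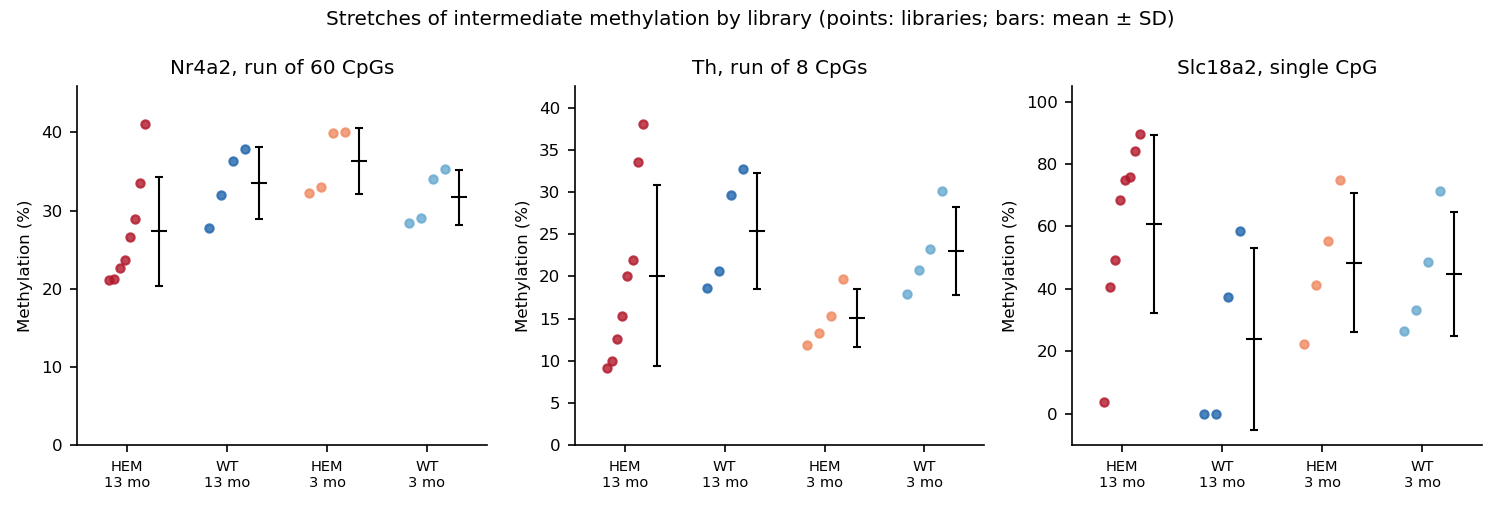
Methylation in percent of the Nr4a2 run of 60 CpGs, the Th run of 8 CpGs and the variable Slc18a2 CpG, with 1 point per library and bars for the mean and SD of each group. The HEM and WT groups overlap in all 3 panels at both ages, and 3 libraries of 13 months are near or at 0 in the Slc18a2 panel.

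The CpGs of smallest p between genotypes in the other members did not pass either. In Slc6a3 a CpG at position 73536371 differed by 3.61 points at 13 months (adjusted p = 0.839, limma), and a CpG at 73538213 by 18.6 points at 3 months (adjusted p = 0.985). The CpG at 73536371 lies before the annotated start used here, at 73536747, but inside the bounds of the gene. In Drd2 a CpG 55 kb into the gene, at position 49395674, differed by -5.51 points at 13 months (adjusted p = 0.837). In Pitx3 a CpG at 46134287, in the flank beyond the gene's end, differed by 14.3 points at 3 months, and in Drd1 a CpG at 54051711 by -10.5 points at 3 months, each with an adjusted p of 0.985. At 13 months the Pitx3 pick was the adjacent position 46134286, at -10.1 points (adjusted p = 0.902, limma). The Drd1 pick at 13 months was 54055159, at 6.27 points (adjusted p = 0.952). For Drd2 at 3 months it was 49340171, at 7.07 points (adjusted p = 0.985).

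The ages were compared within each genotype over CpGs listed at both. Since the 2 ages were deposited as separate sets, age and set cannot be told apart. In HEM 0 of 161 member CpGs, 0 of 12 runs and 0 of 6 regions were called by limma between 13 and 3 months, where the series had 136 of 445659 CpGs (0.0305%), 0 of 62354 runs (0%) and 0 of 19319 regions (0%). At an unadjusted p under 0.05 there were 23 member CpGs (14.3%, against 10.4% of all CpGs tested), 17 of them in Nr4a2. At the same limit there were 3 of 12 runs, against 14.0% of all runs tested, and 2 of 6 regions, against 12.9% of all regions tested. In WT 0 of 163 member CpGs, 0 of 12 runs and 0 of 6 regions were called, where the series had 81 of 442157 CpGs (0.0183%), 3 of 62269 runs (0.00482%) and 1 of 19292 regions (0.00518%). There 3 member CpGs (1.84%, against 4.79% of all CpGs tested) had an unadjusted p under 0.05. Runs at that limit were 0 of 12 (4.99% of all runs tested) and regions 0 of 6 (4.98% of all regions tested).

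Nr4a2 and Drd1 were the 2 regions with an unadjusted p under 0.05 between the ages in HEM, in opposite directions. Nr4a2 was at 9.84% ± 2.43 (SD, n = 8) in HEM at 13 months and 13.0% ± 1.61 (SD, n = 4) in HEM at 3 months, a difference of -3.11 points (-5.96 to -0.26) with a limma adjusted p of 0.357, and 80 of its 84 CpGs were lower at 13 months. In WT the Nr4a2 difference was 0.59 points (-1.86 to 3.04), with 35 of 85 CpGs lower at 13 months. Drd1 was higher at 13 months in HEM by 1.85 points (0.61 to 3.09) with an adjusted p of 0.250, and in WT by 0.30 points (-1.78 to 2.38). With the microglia list mean as a covariate the HEM age coefficient of Nr4a2 on the log2 scale of the fit was -0.21 ± 0.10 (SE), where it had been -0.44 ± 0.18, and that of Drd1 was 0.27 ± 0.09, where it had been 0.27 ± 0.08. Adjusted p-values from limma with the covariate were 0.700 for Nr4a2 and 0.524 for Drd1. The list itself averaged 47.4% in HEM at 13 months and 50.7% in HEM at 3 months. Each list mean was taken over all CpGs listed at its own age. Between the ages, the list means and the covariate therefore rest on different sets of CpGs, and the 2 means cannot be set against each other. The Drd1 region mean is over 12 CpGs, and a single CpG among them had a large difference. This CpG, at position 54051711 near the gene's end, was at 74.3% ± 7.76 (SD, n = 8) in HEM at 13 months and 59.4% ± 3.58 (SD, n = 4) in HEM at 3 months, a difference of 14.9 points. The other Drd1 CpG tested, at 54051674, differed by 0.60 points.

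A Drd2 CpG 370 bases after the start, at position 49340773, had the lowest adjusted p of any member CpG between the ages. Its HEM libraries at 13 months had a lowest value of 3.88%, a median of 13.2% and a highest of 15.9%, and those at 3 months 0%, 7.32%, 0% and 0% for libraries 1, 2, 3 and 7. All but 1 of the 3-month HEM libraries were listed at 0, and library 2 overlapped the 13-month values. The WT libraries 1, 2, 6 and 7 of 13 months had 11.1%, 3.45%, 9.30% and 0%, and the WT libraries 1, 3, 4 and 5 of 3 months had 0%, 3.03%, 21.6% and 3.17%. The difference in HEM was 9.54 points (2.95 to 16.1), with a limma adjusted p of 0.179, and without HEM library 2 of 3 months the adjusted p was 0.00880. That omission leaves only values of 0 in the 3-month HEM group, so the lower adjusted p rests on which library is removed.

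Genes whose deviations from the group means ran most like those of a member over the 20 libraries were sought among the 25723 gene regions with CpGs listed at both ages, leaving out those on the member's own chromosome. Pearson's r served as the measure of likeness, with no test, since the top of so many regions is high by choice. For Nr4a2 the closest were the predicted genes Gm5086 (r = 0.956) and Gm15555 (r = 0.945), for Th Cops8 (r = 0.918) and Gm38660 (r = 0.896), and for Slc6a3 Wwc2 (r = 0.912) and Ksr2 (r = 0.890). For Drd2 they were Gm52293 (r = 0.884) and Peli2 (r = 0.884), and for Pitx3 Mir5617 (r = 0.872) and Gm14114 (r = 0.865). For Slc18a2 they were Pzp (r = 0.863) and 2210417A02Rik (r = 0.862), and for Drd1 Npy5r (r = 0.862) and Dyrk1a (r = 0.823). Libraries share their cell makeup and their depth across all regions.

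Of 40 other genes of dopamine synthesis, breakdown, reception and neuron identity, 38 had at least 3 listed CpGs at 13 months and 29 were tested. None of them was called by limma in any of the 5 comparisons, and at an unadjusted p under 0.05 there were 1 in HEM versus WT at 13 months, 0 at 3 months, 4 between the ages in HEM, 1 between the ages in WT and 2 in the interaction. Over all gene regions tested the shares under that limit were 4.05% at 13 months, 4.03% at 3 months, 12.9% between the ages in HEM, 4.98% between the ages in WT and 5.18% in the interaction. At 13 months 15 were higher and 14 lower in HEM, with a median difference of 0.01 points beside -0.02 points over all gene regions, and at 3 months 13 were higher and 16 lower, with a median of -0.02 points beside -0.05 points. Between 13 and 3 months 21 were higher and 8 lower in HEM, where 63.8% of all regions were higher, and in WT 20 were higher and 9 lower, where 64.1% were. The smallest p at 13 months belonged to Pnmt, which turns noradrenaline into adrenaline, at 30.5% ± 5.03 in HEM (SD, n = 8) and 37.2% ± 1.19 in WT (SD, n = 4), a difference of -6.73 points with a limma adjusted p of 1. Ppp1r1b, which encodes the striatal signalling protein DARPP-32, came next with -0.88 points. At 3 months the 2 of smallest p were the dopamine receptor gene Drd5 (1.32 points) and the monoamine oxidase gene Maoa (1.28 points), each with an adjusted p of 1.

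Between the ages in HEM, Lmx1b, a transcription factor gene of midbrain dopamine neurons, differed by 1.70 points with a limma adjusted p of 0.247. In WT the 2 of smallest p were Pnmt (4.11 points) and Ppp1r1b (0.91 points), each with an adjusted p of 0.951. In the interaction they were Pnmt (-9.14 points) and Maoa (-1.89 points), each with an adjusted p of 0.903.

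The libraries' other marker lists differed little between the genotypes. Neuron marker regions averaged 19.3% ± 0.854 in HEM (SD, n = 8) and 18.8% ± 0.699 in WT (SD, n = 4) at 13 months, and 17.6% ± 0.116 in HEM and 18% ± 0.518 in WT at 3 months (SD, n = 4 each). Group means of the astrocyte list lay between 35.5% and 36.8%, of the oligodendrocyte list between 38.3% and 38.9%, and of the vessel list between 51.0% and 53.6%. Methylation of marker regions does not measure the share of a cell type, and the labelled enrichment for microglia could not be checked by expression here. Read depth is unknown, since the files give percentages without read counts. The adjacent positions that are mostly the 2 strands of 1 CpG give an idea of the noise: among intermediate member CpGs they differed by a median of 7.96 points at 13 months (21 pairs) and 9.83 points at 3 months (27 pairs).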

How the data were processed

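DNA methylation was measured by reduced representation bisulfite sequencing in 20 libraries, and groups came from the labels. The mm10 build and the tools Bowtie2 and methylKit are named, per the submitters' processing notes, while versions, filters and a depth minimum are not given in the sources used here. The deposited values are percent methylation per CpG and library, with no read counts, so intervals that need the depth are not given. A further 21 value columns of unlabelled tables were not used. Each library's values differed from every other's of its age by a mean of 3.39 to 5.09 points, so none was a copy of another. These distances cannot show whether any libraries came from the same mouse, since the distance between repeat libraries of a mouse was not measured.

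Features were single CpGs, runs of at least 3 CpGs with gaps of at most 100 bp, and gene regions with 1 kb either side. Those averaging 5% to 95% entered limma 3.58.1 (R 4.3.3) as log2((percent + 1) / (100 - percent + 1)), without a replicate block, and p-values from the moderated fit were adjusted by Benjamini-Hochberg over all features. Intervals are 95% intervals of the difference in mean percent, from a separate limma fit on the percent scale. The p-values come from the log2 fit, so an interval can leave out 0 where the unadjusted p is not under 0.05. Simulated genotype comparisons with planted changes were used to check the size of the estimates, the sign of the calls and the false calls. Their noise was drawn for each feature alone, without variation that real libraries share across features. How many planted changes were recovered is not reported here. The named CpGs are those of smallest p, of highest and lowest mean and of largest SD in each gene. The 7 members, the gene lists and the tests were chosen with earlier results of these data known. Exon positions were not used here, and 1 other dopamine gene that the naming rule picked is not reported here. Alternatives covered the scale, offset, filters, variances, run gaps, flanks, strands, centring, a microglia covariate, the replicate block and each library left out.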

Additional observations from a re-analysis of the deposited data

Results flagged for a closer look

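Within groups of 4 to 8 libraries, 7 of 88 sets of values of the 7 genes (7.95%) held 1 library far from the others by Dixon's criterion, where chance marks about 1 in 20. The Nr4a2 run from position 57110492 to 57110568 was at 41.7% in HEM library 7 of 3 months, the other HEM libraries of that age being between 62.6% and 63.6%. The Drd2 run from position 49340644 to 49340773 was at 14.7% in HEM library 1 of 3 months, against 2.11% to 3.00% in the others. The Drd1 region was at 11.4% in HEM library 1 of 13 months, against 6.74% to 8.72%. The Slc6a3 region was at 20.6% in WT library 2 of 13 months, against 19.2% to 19.5%. The Drd2 region was at 13.8% in WT library 1 of 13 months, against 11.9% to 12.3%, and at 13.6% in WT library 4 of 3 months, against 11.7% to 11.9%. The Th region was at 57.7% in WT library 3 of 3 months, against 50.2% to 51.2%.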

How the results depend on the processing

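The 15 counts of called CpGs, runs and regions of the 7 genes, all 0, were recomputed in 329 alternatives, of which 328 also gave 0. Leaving out each library in turn gave counts of 0 to 1 for CpGs between 13 and 3 months in HEM: the Drd2 CpG at position 49340773 was called (adjusted p = 0.00880) without HEM library 2 of 3 months, whose 7.32% is the only value above 0 in that group. Of 678 alternative differences of region means, 676 moved by less than 1 SD between libraries and 46 changed sign, none of them called. With the replicate number as a block, fitted on libraries whose number both groups share, all counts stayed at 0, while the differences of Slc6a3 at 13 months (1.42 points) and Drd2 at 3 months (1.25 points) moved by more than 1 SD. Same-numbered libraries of the 2 genotypes correlated at 0.166, 0.382 and 0.0868 at 13 months, where each HEM library correlated best with its own number, and at 0.134 and -0.268 at 3 months, so the numbers were not taken as pairs. No block could be fitted between the ages in WT, which share 1 number. The unknown read depth limits every single-CpG value.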
